A study of Mus musculus with 8 samples.

Results

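The Apoe gene cluster is a run of lipid transport genes on mouse chromosome 7, and its H3K27ac, the acetyl mark on lysine 27 of histone H3 that active promoters and enhancers carry, was compared between microglia of wild-type (WT) and progranulin-deficient (GrnKO) mice. Its members were taken as the rows of the deposited table whose gene name is Apoe, Apoc1, Apoc2, Apoc4 or Tomm40. They came to 22 of 129304 regions, with 8 for Apoe, 8 for Apoc1, 4 for Apoc2, 2 for Tomm40 and 0 for Apoc4. Nuclei were sorted as PU.1+, OLIG2- and NEUN- from frozen hemibrains of C57BL/6 mice aged 2 years, and each replicate pooled nuclei from 2 mice. Both genotypes, WT and GrnKO, had 2 H3K27ac chromatin immunoprecipitation (ChIP-seq) libraries and 2 input libraries, which hold sheared chromatin sequenced without immunoprecipitation. The labels name the genotype as GrnKO; how the allele was made is not given in the sources used here, and the pools cannot show the spread between single mice.

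Apoe encodes apolipoprotein E, the main carrier of cholesterol and other lipids between cells of the brain. Astrocytes make most of it in the healthy brain, and microglia raise it when they take up lipid-rich debris or shift towards a disease-associated state. Apoc1, Apoc2 and Apoc4 encode small exchangeable apolipoproteins that ride on lipoprotein particles, and ApoC-II is the cofactor of lipoprotein lipase. Tomm40 encodes the channel through which proteins enter mitochondria. In human macrophages APOE, APOC1, APOC2 and APOC4 are induced together by the oxysterol receptors LXR-alpha and LXR-beta, acting through enhancers that lie between the genes. In the mouse all 5 genes are read from the minus strand, in the order Tomm40, Apoe, Apoc1, Apoc4 and Apoc2.

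Values are called scaled tags: tags in an 800 bp region per 10000000 tags of the library. The H3K27ac libraries held 15491642.5 to 20030832 tags, of which 49.4% lay in the listed regions in WT replicate 1 and 63.3% to 65.7% in the others, and the inputs held 4078179 to 14415969 tags, 4.02% to 4.79% of them in the regions. Because WT replicate 1 stands apart in this way, tests used values rescaled by TMM factors: the median log2 change from WT to GrnKO over all tested regions was then −0.0020, against 0.22 with the scaling of the authors. The targeted gene went with the labels: summed H3K27ac over the 10 Grn regions was 1891 and 1938 scaled tags in WT and 170 and 175 in GrnKO, and 4 of these regions held 0 tags in both GrnKO libraries. Microglial markers were strongly acetylated in every library, with a mean of 164 to 218 scaled tags per region over the 10 genes of that list, and 6 of the 10 gene sums were called lower in GrnKO, where 5.88% of all gene sums were. The log2 change was below 0 in 9 of the 10, and with the scaling of the authors it was below 0 in 5 of them and none was called.

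The promoters at the head of the cluster are shown because H3K27ac moved at Apoe and did not pass the test at Tomm40. Each line gives the 250 bases before the start site, 5′ to 3′ on the minus strand, from RefSeq (GRCm38.p6). The Apoe bases are chr7:19699189-19699438 and the Tomm40 bases chr7:19715430-19715679, and capitals mark CCAAT on either strand, the CCAAT-box letters, which were chosen after the sequences had been seen.
Apoe: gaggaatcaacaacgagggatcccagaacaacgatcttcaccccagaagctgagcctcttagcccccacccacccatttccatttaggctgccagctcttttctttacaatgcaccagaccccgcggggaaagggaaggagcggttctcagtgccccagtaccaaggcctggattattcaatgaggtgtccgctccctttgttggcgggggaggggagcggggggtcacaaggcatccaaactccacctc
Tomm40: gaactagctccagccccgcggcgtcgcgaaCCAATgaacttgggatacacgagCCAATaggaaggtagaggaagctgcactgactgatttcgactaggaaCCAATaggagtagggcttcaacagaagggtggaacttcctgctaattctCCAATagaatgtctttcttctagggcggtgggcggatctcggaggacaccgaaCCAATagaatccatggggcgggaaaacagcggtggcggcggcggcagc
The Tomm40 window held 5 CCAAT matches and 3 matches to GGGCGG, the letters of the GC box, whereas the Apoe window held 0 of either. Of 32851 RefSeq promoters of the same length, 33.8% held at least 1 CCAAT, 0.213% held 5 or more, and 32.7% held GGGCGG. The paired nuclear receptor repeat with the LXR spacing, GAGGAAGT (PU.1), TGANTCA (AP-1) and TCACGTG (MiT/TFE factors) were searched on both strands, and none was found in the windows of Apoe, Tomm40, Apoc2 or Apoc4. They occur in 0.0639%, 2.44%, 6.75% and 3.13% of all promoters.

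H3K27ac over the cluster was higher in GrnKO than in WT microglia. Summed over the 22 regions it was 1085 and 933 scaled tags in WT and 2170 and 1935 in GrnKO, 1.71 times higher after TMM rescaling of the group means and 2.03 times higher with the scaling of the authors. The rise was carried by the 3 apolipoprotein genes with regions, and Tomm40 did not pass the test. Some regions overlap, so a read near their borders enters more than 1 region of a sum.

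Apoe had the highest sum, 504 and 415 scaled tags in WT against 1021 and 886 in GrnKO. Both GrnKO libraries lay above both WT libraries, and the log2 change was 0.83 ± 0.17 (SE, 2 libraries per genotype), a 1.78-fold rise (limma, Benjamini-Hochberg adjusted p = 0.00544). Apoc2 rose most, from 141 and 156 to 409 and 370 scaled tags, a log2 change of 1.16 ± 0.17 or 2.24-fold (limma adjusted p = 0.000577). Apoc1 rose from 407 and 291 to 686 and 622 scaled tags, by 0.70 ± 0.21 on the log2 scale or 1.62-fold (limma adjusted p = 0.0384). Tomm40 had 33.9 and 71.1 scaled tags in WT and 54.1 and 56.2 in GrnKO, with both GrnKO libraries between the WT libraries and a log2 change of −0.06 (95% interval −0.78 to 0.66, limma adjusted p = 0.94). Thus 3 of 4 tested cluster genes were called higher and 0 lower, where 8.59% of all 15380 tested gene sums were called higher and 5.88% lower (10.6% and 1.08% with the scaling of the authors). The median change over all gene sums was −0.05.

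Single libraries bear on these calls. Without WT replicate 1, the library that stands apart, the sums of Apoc2 and Apoe changed by 1.25 and 1.13. Apoc2 passed the test whichever library was left out. The Apoe sum changed by 0.53 without WT replicate 2, and its adjusted p was 0.0532 without GrnKO replicate 1 (limma). The Apoc1 sum changed by 0.30 without WT replicate 2 (adjusted p = 0.124) and by 1.10 without WT replicate 1, and its adjusted p was 0.187 without GrnKO replicate 1 and 0.0684 without GrnKO replicate 2.

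**Figure D1:**
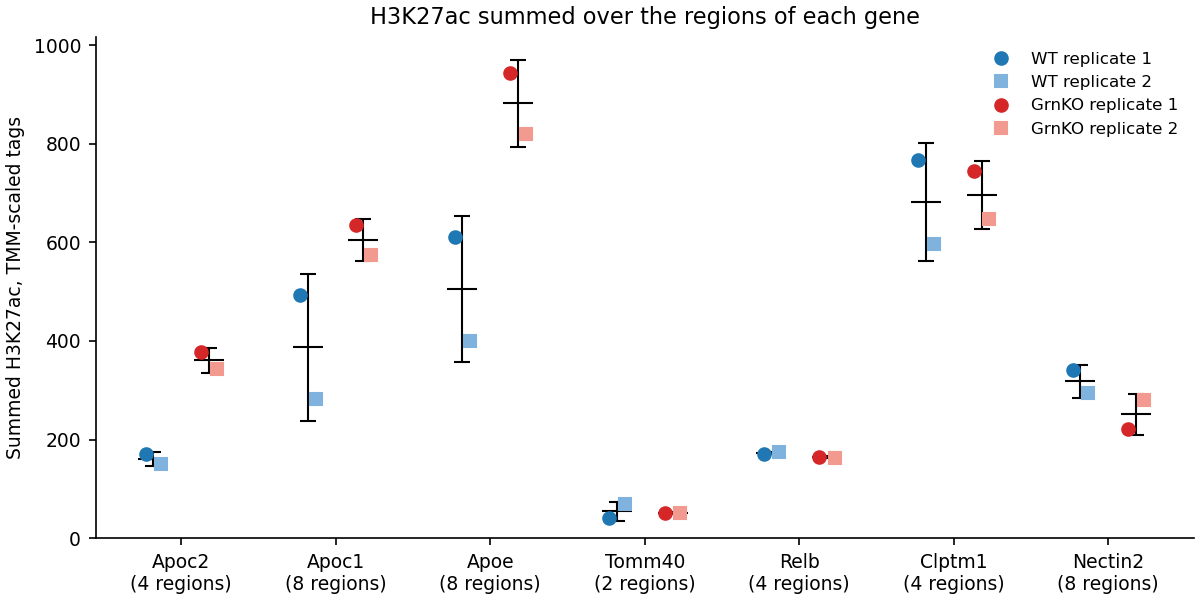
H3K27ac summed over the regions of each gene, in TMM-scaled tags (vertical axis), for the 4 cluster genes with regions and 3 neighbours (horizontal axis, with the number of regions). Points are libraries and bars are the mean ± SD of 2 libraries. Both GrnKO points lie above both WT points for Apoc2, Apoc1 and Apoe, as in 25.4% of all tested gene sums, while they overlap for Tomm40 and Clptm1.

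Ratios within a library do not depend on how libraries are scaled. Apoe over Clptm1, the ubiquitously expressed gene beyond the Apoc2 end of the cluster, was 0.796 and 0.671 in WT and 1.27 and 1.27 in GrnKO. Apoe over Tomm40 was 14.9 and 5.84 in WT and 18.9 and 15.8 in GrnKO, so the groups were separated only by the gap between 14.9 and 15.8 (exact permutation test, two-sided, p = 0.333, the smallest that 2 libraries against 2 allow). Apoc1 over Tomm40 overlapped between genotypes, at 12 and 4.10 in WT and 12.7 and 11.1 in GrnKO (exact permutation p = 0.667), and Apoc1 over Apoe was 0.807 and 0.702 in WT and 0.672 and 0.7015 in GrnKO. Apoc2 over Apoe was 0.280 and 0.375 in WT and 0.401 and 0.418 in GrnKO (exact permutation p = 0.333). Apoe kept between 44.5% and 47.0% of the cluster's scaled tags in all 4 libraries, whereas the share of Apoc2 was 12.99% and 16.7% in WT and 18.9% and 19.1% in GrnKO.

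At the level of regions, 21 of the 22 passed the filter on low values and 6 of them (28.6%) were called higher in GrnKO, with 0 called lower; over all 80728 tested regions 6.8% were called higher and 2.92% lower (8.15% and 0.412% with the scaling of the authors, under which 9 of the 21 were called). The 6 lay in Apoc2 (3), Apoe (2) and Apoc1 (1). At an unadjusted limma p under 0.05 there were 14 higher and 0 lower, a count with no share over all regions to set beside it. On the recovered reads edgeR and DESeq2 each called 5 higher and 0 lower. Over all tested regions edgeR called 6.08% higher and 2.5% lower, and DESeq2 6.4% and 3.03%. Fitted with no filter, all 22 had a log2 change, which was above 0 in 19, with a median of 0.88 against −0.03 over 127833 regions. Of the 21, the low Apoc1 regions in intron 3 of 3 and intron 2 of 3 passed the filter only because both of their GrnKO values did, with 0 and 1 WT libraries past its minimum, so the counts over the 21 are descriptions. Both GrnKO values were above both WT values after TMM rescaling in 15 of the 21, as in 27% of all tested regions. The count of called regions changed with the library left out, and so did the share of all tested regions called higher. It was 0 without GrnKO replicate 1 (1.43% of all), 2 without GrnKO replicate 2 (1.81%) and 15 without WT replicate 1 (10.6%). The Apoe sum changed by 0.73 without GrnKO replicate 1 and 0.93 without GrnKO replicate 2, against 0.83 with all libraries. Without WT replicate 1 or 2 it changed by 1.13 or 0.53. For Apoc2 these values were 1.09 and 1.23, against 1.16, and 1.25 or 1.07. Why calls were lost without a GrnKO library was not tested. Where regions overlap only the one with the most H3K27ac was kept in an alternative set, and 3 of 12 tested regions were then called, where 6.92% of all such regions were called higher.

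At Apoe the strongest acetylation lay at the promoter, and so did the calls. The region over the start site (chr7:19698743-19699543, promoter) had 142 and 113 scaled tags in WT and 271 and 259 in GrnKO. Both GrnKO libraries lay above both WT libraries, by 0.83 on the log2 scale or 1.78-fold (limma adjusted p = 0.0129). Among all tested regions it stood at percentile 84.0 of mean H3K27ac in WT and at percentile 93.4 in GrnKO. The neighbouring upstream region (chr7:19699353-19700153, promoter) had 91.3 and 77.9 scaled tags in WT and 272 and 221 in GrnKO. It showed the smallest adjusted p of the cluster, with a log2 change of 1.30 ± 0.21 (SE) or 2.47-fold (limma adjusted p = 0.000673). Without GrnKO replicate 1 the adjusted p was 0.189 at the first and 0.051 at the second, without GrnKO replicate 2 it was 0.115 at the first, and without WT replicate 2 the first changed by 0.51.

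The body of Apoe was more weakly acetylated and no region there was called by limma after TMM rescaling. The region annotated to the 5′ UTR (chr7:19697867-19698667, at 2 inner start sites of RefSeq) had 97.2 and 42.6 scaled tags in WT and 125 and 135 in GrnKO, and its WT libraries differed from each other more than WT replicate 1 did from GrnKO. The region in intron 3 of 3 (chr7:19697040-19697840) had 36.1 and 23.9 scaled tags in WT and 71.6 and 58.4 in GrnKO. In exon 4 of 4 (chr7:19696258-19697058) WT had 13.9 and 27.1 scaled tags and GrnKO 60.5 and 34.2. At the transcript end (chr7:19695524-19696324) WT had 20.98 and 23.3 and GrnKO 66.7 and 39.9. In all 4 the GrnKO values lay above the WT values as deposited, as in 35.8% of all tested regions. After TMM rescaling their log2 changes were 0.78, 0.89, 0.97 and 0.97, with limma adjusted p of 0.16, 0.115, 0.14 and 0.105. The first overlapped between genotypes after TMM rescaling, and its log2 change was 0.03 without WT replicate 2 and 1.52 without WT replicate 1. Calls in these regions changed with the library left out. In the exon 4 and transcript-end regions GrnKO replicate 1 lay well above GrnKO replicate 2, so their rises are smaller without it. The intron 3 region changed by 0.44 without WT replicate 2, and with the scaling of the authors it passed the test (1.11, adjusted p = 0.0473).

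Upstream of Apoe, towards Tomm40, the values of the genotypes came together. The region at the end of Tomm40 that the table assigns to Apoe (chr7:19700703-19701503) had 54.2 and 57.0 scaled tags in WT and 106 and 92.9 in GrnKO (log2 change 0.60, limma adjusted p = 0.14). The next region, in the last exon of Tomm40 (exon 10 of 10, chr7:19701194-19701994), overlaps it by 309 bp and had 47.8 and 49.6 scaled tags in WT and 48.0 and 45.7 in GrnKO (log2 change −0.28, 95% interval −0.90 to 0.35, adjusted p = 0.63). Summed within 1000 bp of the start sites, Apoe changed by 0.97 (limma adjusted p = 0.00708), and summed beyond them by 0.51 (adjusted p = 0.106). The ratio of both sums was 2.68 and 1.64 in WT and 2.62 and 3.17 in GrnKO, so the genotypes overlapped (exact permutation p = 0.667).

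At Apoc1 the acetylation lay upstream of the gene, in the stretch towards the end of Apoe. The 3 regions nearest the gene were low. The region in intron 3 of 3 (chr7:19691390-19692190) had 4.84 and 1.09 scaled tags in WT and 15.0 and 9.24 in GrnKO. The region that begins in intron 2 of 3 (chr7:19691701-19692501) had 8.39 and 1.36 in WT and 12.2 and 8.74 in GrnKO, and it changed from 1.06 to −0.08 without WT replicate 2. The region over the start site (chr7:19692283-19693083) had 27.4 and 16.0 in WT and 26 and 22.2 in GrnKO, with GrnKO inside the range of WT. Their limma adjusted p were 0.245, 0.493 and 0.978 at 2 to 44.5 tags per library, and the interval of the last ran from −0.97 to 0.91.

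The 5 regions further upstream form a chain in which each overlaps the next. Their highest values were in the pair closest to the promoter. The region at chr7:19693217-19694017 had 107 and 85.4 scaled tags in WT and 150 and 151 in GrnKO (log2 change 0.42, limma adjusted p = 0.269). The region at chr7:19693667-19694467 had 109 and 82.5 in WT and 178 and 163 in GrnKO (0.61, adjusted p = 0.105). GrnKO lay above WT in both without passing the test. Without WT replicate 2 they changed by 0.11 and 0.25, and without WT replicate 1 by 0.74 and 0.98, which passed the test (limma adjusted p of 0.0128 and 0.000542).

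Next came the called region (chr7:19694168-19694968, intergenic), with 58.7 and 36.1 scaled tags in WT and 116 and 98.1 in GrnKO. It rose by 0.97 or 1.96-fold (limma adjusted p = 0.0498). The call was lost with edgeR (adjusted p = 0.0892) or DESeq2 (adjusted p = 0.0982) on the recovered reads. It was also lost with no filter and with libraries scaled to their tags in the listed regions. Leaving out WT replicate 2 (log2 change 0.47) or either GrnKO library ended it as well. Its neighbour (chr7:19694501-19695301), which shares 467 bp with it, had 59.7 and 32.8 in WT and 110 and 102 in GrnKO (1.01, limma adjusted p = 0.0515). It changed by 0.43 without WT replicate 2 and by 1.60 without WT replicate 1, and it passed the test with the scaling of the authors (adjusted p = 0.0128) and with a pseudocount of 5 (0.0355). The last of the chain (chr7:19695120-19695920), at the end of Apoe, had 31.6 and 36.1 in WT and 79.5 and 68.1 in GrnKO (0.88, limma adjusted p = 0.0644, and 0.0346 with the scaling of the authors). Adjusted p of the last 3 regions thus lay on both sides of the threshold, depending on the setting. The WT replicates differed most in the middle of this chain, with replicate 1 above replicate 2. Summed within 1000 bp of the start, Apoc1 changed by 0.44 (limma adjusted p = 0.369), and beyond it by 0.82 (adjusted p = 0.0265).

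All 3 tested regions of Apoc2 were called higher, each at about 2-fold. In intron 1 of 4 (chr7:19676492-19677292) H3K27ac was 28.4 and 34.7 scaled tags in WT and 82.6 and 103 in GrnKO, a rise of 1.30 or 2.47-fold (limma adjusted p = 0.00638). In intron 1 of 3, counted on another transcript (chr7:19675608-19676408), it was 59.1 and 60.8 in WT and 194 and 152 in GrnKO, a rise of 1.28 or 2.43-fold (adjusted p = 0.0013). The WT values of this region lay close together and well below both GrnKO values. Downstream of the gene (chr7:19669249-19670049, intergenic) it was 52.9 and 58.6 in WT and 129 and 110 in GrnKO, a rise of 0.86 or 1.82-fold (adjusted p = 0.0277). All 3 calls were lost without GrnKO replicate 1, with limma adjusted p of 0.0875, 0.11 and 0.416, and the first and last also without GrnKO replicate 2 (0.212 and 0.17). The fourth region, in exon 3 of 4 (chr7:19672924-19673724), held 1 and 3 tags in WT and 6 and 10 in GrnKO and was too low to be tested.

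Apoc4 has no region of its own in the table, so its acetylation was not measured under that name. Its RefSeq gene spans chr7:19678084-19681460, between Apoc2 and Apoc1. Beyond its start lay a region assigned to Gm44805, a RefSeq gene that joins Apoc4 and Apoc2 (chr7:19683457-19684257, intergenic). It had 54.2 and 50.7 scaled tags in WT and 139 and 110 in GrnKO, a rise of 1.00 or 2.00-fold (limma adjusted p = 0.0163). The call was lost without GrnKO replicate 1 (adjusted p = 0.362) or GrnKO replicate 2 (adjusted p = 0.0925).

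Tomm40 had the lowest H3K27ac of the 4 genes with regions, also per region, and neither of its regions was called. Its 2 regions share 562 bp at the start site. The first (chr7:19715213-19716013) had 12.6 and 21.4 scaled tags in WT and 21.7 and 29.2 in GrnKO, and the genotypes overlapped after TMM rescaling (log2 change 0.37, 95% interval −0.56 to 1.30, limma adjusted p = 0.672). The other (chr7:19715451-19716251) had 21.3 and 49.6 in WT and 32.4 and 26.96 in GrnKO (−0.35, −1.16 to 0.45, adjusted p = 0.637). The WT replicates differed from each other by more than the genotypes did. The interval of the first region includes a rise as large as that at the Apoe start, and the interval of the other does not.

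**Figure D2:**
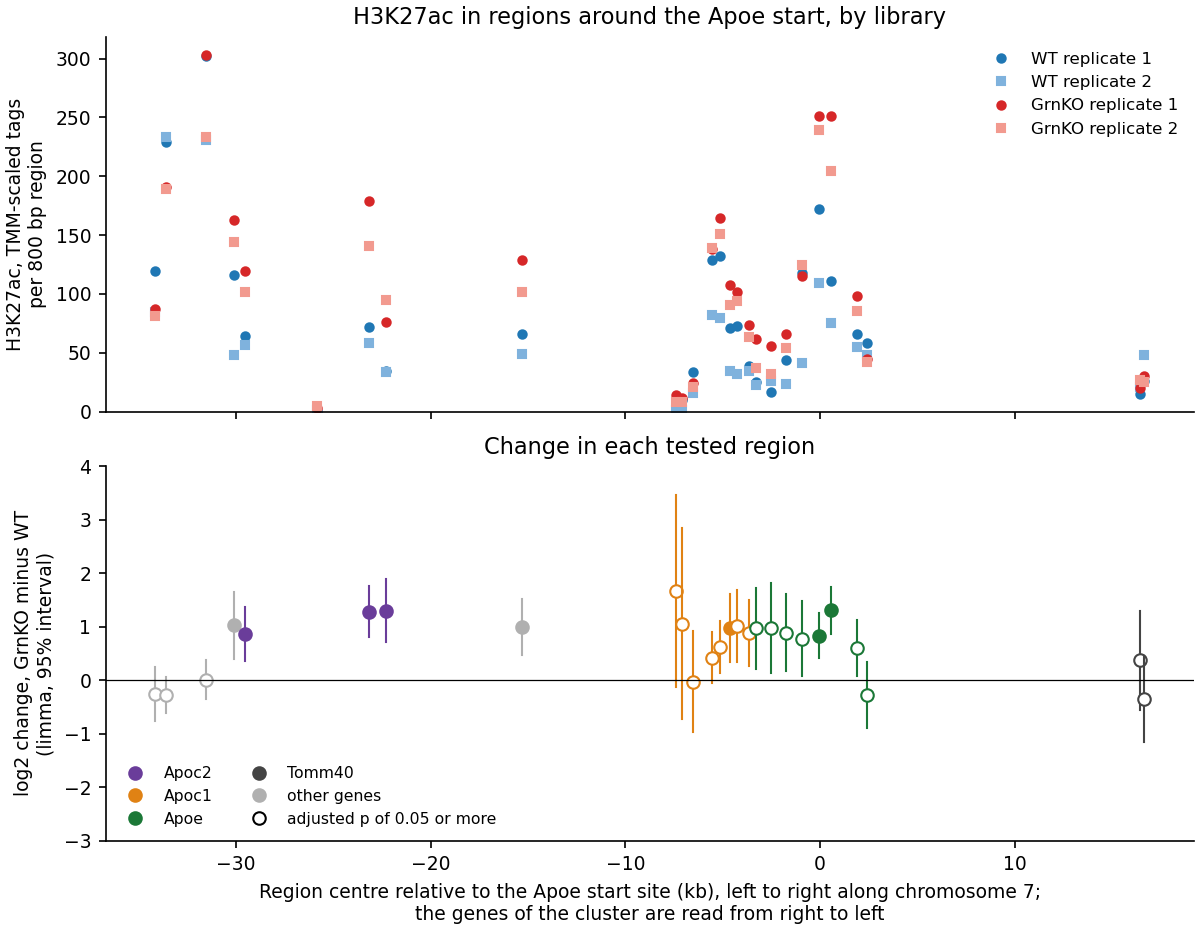
H3K27ac by library in TMM-scaled tags per region (top) and the log2 change with its 95% interval (bottom), against the distance of each region's centre from the Apoe start in kb along the chromosome. Filled circles are regions called higher: 8 of them, 2 assigned to other genes, lie between the downstream side of Apoc2 and the Apoe promoter, and no region at either end of the plot was called.

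The called regions of the cluster were flanked on both sides by regions that did not pass the test. Within 100000 bp of the Apoe start the table lists 24 regions of other genes, of which 16 were tested, with a median log2 change of −0.26. Of these, 2 were called higher and 0 lower, where 6.8% of all tested regions were called higher and 2.92% lower. The 2 were the Gm44805 region above and a region assigned to Clptm1 (chr7:19668697-19669497) that overlaps the downstream Apoc2 region by 248 bp. The latter had 95.5 and 49.6 scaled tags in WT and 176 and 156 in GrnKO (log2 change 1.03, limma adjusted p = 0.035), and changed by 0.40 without WT replicate 2 (adjusted p = 0.169). Its call was also lost without GrnKO replicate 1 (0.279) or GrnKO replicate 2 (0.135), with edgeR (0.0813) or DESeq2 (0.0706) on the recovered reads, and with no filter (0.0814). The summed H3K27ac of Clptm1 changed by 0.04 (adjusted p = 0.905) and that of Relb, which encodes an NF-kappaB subunit, by −0.07 (adjusted p = 0.855). On the Tomm40 side Nectin2, which encodes an adhesion receptor, had log2 changes below 0 in 6 of 7 tested regions and a summed change of −0.35 (adjusted p = 0.226). Its other tested region, in intron 1 of 8 (chr7:19744378-19745178), had 24.9 and 41.2 scaled tags in WT and 62.7 and 80.4 in GrnKO, a log2 change of 0.90 as large as at the Apoe start (adjusted p = 0.0717, and 0.0416 with the scaling of the authors). The input there was 9.71 and 48.98 scaled tags in GrnKO and 0 in both WT pools, and its part in the difference was not tested. Of 12 fixed neighbouring genes 10 were tested, and Ceacam19, which lies further out, was the only 1 called by limma (DESeq2 called 2), a share near the 8.59% of all gene sums called higher (40.3 and 17.4 scaled tags in WT, 92.7 and 122 in GrnKO, log2 change 1.74, adjusted p = 0.0142). Its adjusted p was 0.122 without GrnKO replicate 2, and it changed by 2.49 without WT replicate 1 and by 1.00 without WT replicate 2. Its input sum was 157 scaled tags in WT replicate 1, above the H3K27ac of that pool, and 5.35, 22.2 and 31.6 in the others.

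Input was below the H3K27ac of the same pool over the cluster except in 3 regions. The Apoe sum was 103 scaled tags in the input of WT replicate 1, all in the region at the transcript end, and 6.42, 24.97 and 0 in the other inputs. At that region the WT replicate 1 input (42 tags) exceeded the H3K27ac value of the same pool, and the 3 other inputs held 0 to 8 tags. In WT replicate 2 the input exceeded H3K27ac at the low Apoc1 regions in intron 3 of 3 (6.42 against 1.09 scaled tags) and intron 2 of 3 (10.7 against 1.36). The inputs of Apoc1 summed to at most 36.1 scaled tags, those of Apoc2 to at most 23.2 and those of Tomm40 to at most 2.08. When the log2 input of the same pool was subtracted, no cluster region or gene sum was called, and none of the 80728 regions was; the Apoe sum then changed by 3.28 and the upstream promoter region of Apoe by −0.19. The inputs differ in depth, and 3 tags, the floor of detection, correspond to 7.36 scaled tags in the input of WT replicate 1 and to 2.08 in that of GrnKO replicate 1. Floors cover counting error only, since the reads carry no molecular identifiers. The 95% intervals come from limma and use the spread between libraries, moderated towards the trend over all regions or gene sums.

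Genes that act with apolipoprotein E were counted on gene sums, of which 8.59% were called higher and 5.88% lower over the genome. Of the LXR and RXR receptors, the nuclear receptors that switch on the cluster in macrophages, 1 of 4 rose and 0 fell: Rxra, the partner of LXR, had 3205 and 3931 scaled tags in WT and 5533 and 5677 in GrnKO (log2 change 0.43, limma adjusted p = 0.00119). Nr1h3, which encodes LXR-alpha, had 52.3 and 103 in WT and 177 and 127 in GrnKO (0.79, limma adjusted p = 0.0717). The input sum of Nr1h3 was 0 and 75.9 scaled tags in WT and 7.63 and 32.7 in GrnKO. With the scaling of the authors the call passed from Rxra (adjusted p = 0.106) to Nr1h3 (log2 change 1.02, adjusted p = 0.0076). The median change of the list was 0.21, against −0.05 over all gene sums.

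Among genes of lipid efflux and lipoprotein remodelling 2 of 11 tested rose and 0 fell, against 8.59% and 5.88% of all gene sums, with a median of 0.02. Npc1, which exports cholesterol from lysosomes, had 633 and 650 scaled tags in WT and 1017 and 1137 in GrnKO (0.52, limma adjusted p = 0.0151). Scd2, a fatty acid desaturase, had 331 and 409 in WT and 614 and 613 in GrnKO (0.51, adjusted p = 0.019). The transporters Abca1 and Abcg1, which load lipid onto apolipoprotein E, changed by −0.02 and −0.06, and neither passed the test. Srebf1 and Pltp changed by 0.40 and 0.23 (limma adjusted p = 0.181 and 0.31), and 4 of the 11 tested had log2 changes below 0. Both calls were lost without either GrnKO library, with adjusted p of 0.0586 and 0.188 for Npc1 and 0.201 and 0.168 for Scd2.

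Of the receptors of apolipoprotein E 1 of 7 tested rose and 0 fell by limma (2 rose by DESeq2), against 8.59% and 5.88% of all gene sums, with a median of −0.0036. Lrp1, which takes up lipoproteins, had 5042 and 6703 scaled tags in WT and 8019 and 8589 in GrnKO (0.29, limma adjusted p = 0.012). Without GrnKO replicate 1 its adjusted p was 0.0666, without GrnKO replicate 2 it was 0.223, and with the scaling of the authors 0.307.

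Of 17 other apolipoprotein genes 7 could be tested, and 2 rose and 0 fell, against 8.59% and 5.88% of all gene sums, with a median of 0.32. Apol8 had 186 and 223 scaled tags in WT and 436 and 396 in GrnKO (0.80, limma adjusted p = 0.00392). The input sum of Apol8 was 204 scaled tags in WT replicate 1, above the H3K27ac of that pool, and 55.1, 36.4 and 89.8 in the others. Saa3, an acute-phase protein of high-density lipoprotein, had 4.196 and 13.6 in WT and 45.3 and 46.9 in GrnKO (2.24, adjusted p = 0.0124), but it passed the filter on low values only through GrnKO, so its call is a description. Without GrnKO replicate 1 the adjusted p was 0.0967 for Apol8 and 0.154 for Saa3, and without GrnKO replicate 2 it was 0.148 for Saa3. Of the partners of Tomm40 in the mitochondrial import complex 0 of 8 were called by limma in either direction, with a median of −0.04; 2 were higher at an unadjusted p under 0.05, and edgeR and DESeq2 each called 1 higher. The smallest adjusted p in that list was that of Tomm20 (0.41, adjusted p = 0.0516). With the scaling of the authors limma called Tomm7 (log2 change 1.14, adjusted p = 0.0115, against 0.92 and 0.07 after TMM rescaling).

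**Figure D3:**
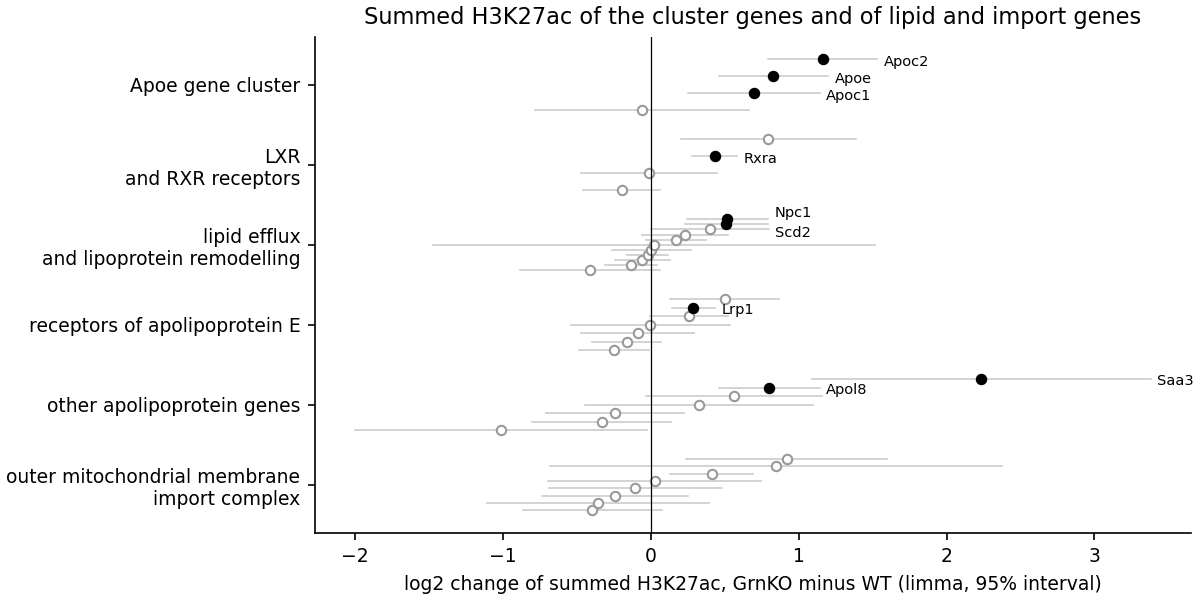
Log2 change of summed H3K27ac with its 95% interval for the tested genes of the cluster and of each list of related genes (rows). Filled points passed the adjusted p threshold of 0.05 and are named: Apoc2, Apoe and Apoc1 lie among the larger rises, and Saa3, which passed the filter only through GrnKO, lies furthest to the right.

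Other cells of the brain also use the cluster, and their markers were read beside it. Border macrophages express Apoe strongly: limma called 1 of 9 of their markers higher, near the 8.59% of all gene sums, and edgeR and DESeq2 each called 2. The 1 was Ms4a7 (140 and 152 scaled tags in WT, 595 and 454 in GrnKO, log2 change 1.60, limma adjusted p = 7.2e-05), and the list as a whole summed to 3076 and 3774 in WT and 4503 and 4420 in GrnKO. F13a1 had 146 and 165 scaled tags in WT and 314 and 241 in GrnKO (0.60, limma adjusted p = 0.054, and 0.0158 with the scaling of the authors). The other 7 had log2 changes of −0.80 (Lyve1) to 0.10 (Mrc1), with Cd163 at −0.09 and Pf4 at −0.04, and none was called by limma. Of the astrocyte markers 0 of 5 tested were called by limma, edgeR or DESeq2 (2 higher and 1 lower at an unadjusted limma p under 0.05), and the sum of that list was 2913 and 3573 in WT and 3479 and 3540 in GrnKO, nearly all from Slc1a3. The 2 higher at an unadjusted p were Aldh1l1 and Slc1a2. Aldh1l1 had 3.55 and 1.36 scaled tags in WT and 16.8 and 10.2 in GrnKO (1.91, limma adjusted p = 0.173), and it passed the filter only through GrnKO. Its input was 81.6 scaled tags in GrnKO replicate 2, above the H3K27ac of that pool, and 0 to 1.07 in the others. Slc1a2 had 34.5 and 25.8 in WT and 59.3 and 63.7 in GrnKO (0.80, limma adjusted p = 0.173). Gfap and Gja1 were too low to be tested, at 13.9 and 3.798 scaled tags for Gfap and 16.8 and 5.43 for Gja1 in WT, and at 1.53 and 3.50 and at 0.612 and 2.75 in GrnKO. Markers of endothelial cells and pericytes had log2 changes above 0 in 4 of 4 tested, with a median of 0.42, and their sum was 1060 and 1348 scaled tags in WT and 1999 and 2123 in GrnKO. Of these Flt1 was called, with 408 and 440 scaled tags in WT and 949 and 970 in GrnKO (0.95, limma adjusted p = 0.000285), against 0.83 for Apoe. In the other lists, where 8.59% of all gene sums were called higher and 5.88% lower, limma called 1 of 3 tested markers of monocytes and neutrophils higher and 1 lower (0 and 0 by edgeR). The higher was S100a8, at 0 and 5.43 scaled tags in WT and 22.02 and 20.2 in GrnKO, which passed the filter only through GrnKO, and the lower was Ccr2 (−0.53); that list summed to 494 and 615 in WT and 520 and 419 in GrnKO. Of 4 tested markers of the oligodendrocyte lineage Mbp was called higher (0.47, limma adjusted p = 0.00268) and Mog lower (−1.30, limma adjusted p = 0.00154). Of the 4, 3 had log2 changes below 0, with a median of −0.45. The list summed to 1656 and 2073 in WT and 2713 and 2873 in GrnKO. Mbp alone held 1472 and 1877 of this in WT and 2613 and 2773 in GrnKO. Of 4 tested markers of neurons Syt1 was lower (−0.99, adjusted p = 0.0213), with sums of 195 and 284 in WT and 200.3 and 172 in GrnKO, and the only 1 tested of T, B and NK cells was not called. No listed marker in the table was at 0 in all 4 libraries. The part of these genes or of other cells in the result was not tested, and more acetylated cells cannot be told apart from more acetylation per cell in pooled nuclei.

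The genes whose summed H3K27ac followed Apoe most closely over the 4 libraries were sought among 5792 genes whose mean log2 sum was no more than 2 below that of Apoe, by Euclidean distance of centred log2 sums. They were C630043F03Rik, Ssx2ip, Rtcb, 4930526H09Rik and Clic4, at distances of 0.0092, 0.079, 0.084, 0.09 and 0.0943 log2 units. Their WT means ran from 118 scaled tags (Ssx2ip) to 991 (Rtcb), against 459 for Apoe. Input came near H3K27ac in some pools. For C630043F03Rik it was 83.4 against 115 scaled tags in WT replicate 2 and 226 against 246 in GrnKO replicate 2. For 4930526H09Rik it was 175 against 224 in WT replicate 1. Rtcb encodes the RNA ligase of tRNA splicing and had 1075 and 906 scaled tags in WT and 2068 and 1921 in GrnKO. With 4 libraries such a ranking describes these samples only.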

How the data were processed

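Per the submitters' processing notes the tools were Bowtie2, HOMER and DESeq2 with build mm10; versions, duplicate handling and the region caller's settings are not given in the sources used here. The values are a signal that the authors deposited as HOMER tags per 800 bp region, scaled to 10000000 tags per library per the file headers; the name the authors gave the deposited table describes the regions as ATAC-seq IDR peaks, and neither its header nor the labels say how that list was made. Multiplying by the totals gave whole read ends for 100% of values (2 ends per tag), within 0.0141 to 0.03 read ends by library. Gene names and positions are the table's: the implied start sites of 12 of 14 checked cluster regions matched RefSeq GRCm38.p6 starts at 0 bp, and 2 Apoc2 regions use another start 4021 bp away.

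Regions with too few tags were removed with filterByExpr (edgeR 4.0.16, minimum 10), leaving 80728 regions and 15380 gene sums. Values were rescaled by TMM factors (0.825 and 1.04 in WT, 1.08 and 1.08 in GrnKO), and limma 3.58.1 in R 4.3.3 (lmFit, eBayes with trend, genotype as the only term) was fitted to log2(value + 1) of the 4 H3K27ac libraries, two-sided, with Benjamini-Hochberg adjustment at 0.05 over all regions or all gene sums. The pseudocount makes log2 changes of low regions too small. edgeR's quasi-likelihood test and DESeq2 1.42.0 on the recovered reads were alternatives, and the fits were tested on simulated data. The fit without a filter leaves out regions with 0 tags in all 4 libraries.

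The members, gene lists and tests were chosen with earlier results of these data known. All cluster regions are reported; other regions within 100000 bp are named if called, genes of the lists that act with apolipoprotein E by smallest p among those called, at most 3 per list and direction, and else the next by p. Abca1, Abcg1, Srebf1, Pltp, the cell markers named, Nr1h3, Tomm7, the CCAAT and GC boxes, Clptm1, Relb and Nectin2 are named beyond these rules, with their values already known.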

Additional observations from a re-analysis of the deposited data

How the results depend on the processing

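Of the values that the 4 gene sums and 3 counts of calls took under the alternatives, 75 kept their direction and call (counts: within 1.5 times), 11 counts moved further, 9 sums lost the call and 2 changed direction; 0 cluster regions were called lower in any of them. Subtracting the input of the same pool ended every call, in the cluster and in all 80728 regions (0 called), with changes of 0.36 for Apoc2, 0.53 for Apoc1 and 3.28 for Apoe; the inputs hold few tags per region. The same setting turned the direction of 5 cluster regions without a call: Apoc1 19692283 (1.23), 19693217 (−1.59) and 19695120 (−0.31), Apoe 19700703 (−0.89), Tomm40 19715213 (−0.44); and of the called Apoe region 19699353 (−0.19) and Npc1 (−1.42). The scaling of the authors turned Tomm40 (0.16) and Apoc1 19692283 (0.19). Leaving out a library, the called cluster regions ranged from 0 to 15 and all called regions from 1351 to 14397; the sums ranged from 1.07 to 1.25 for Apoc2, 0.30 to 1.10 for Apoc1, 0.53 to 1.13 for Apoe and −0.42 to 0.31 for Tomm40, and those that changed direction ranged from −0.077 to 2.23 (Apoc1 19691701), −0.56 to 0.50 (Apoc1 19692283, 0.077 without GrnKO replicate 2) and −0.79 to 0.082 (Tomm40 19715451). With 1 library left in a genotype, it is assumed to vary like the other group. Overlapping regions removed, 3 cluster regions were called. Apoc1 near its start changed by 0.44 and Apoe away from its start by 0.51, both without a call. Same-numbered libraries come from different mice and deviated together with r = 0.0344, and the main fit did not pair them. With 2 libraries per genotype the deviations mirror each other, so this value cannot exclude a batch that same-numbered libraries share. With the replicate block 10 cluster regions and 11391 of all regions were called. The 4 added ones were Apoe 19697867 and Apoc1 19693667, 19694501 and 19695120 (limma adjusted p of 0.0131, 0.0275, 0.0031 and 0.038). The causes of these changes were not tested. With 2 libraries per genotype, and a pool behind each, p-values rest only in part on the spread between pools. The spread of each region or gene sum was moderated by eBayes towards the trend over all of them. Depth kept 1 Apoc2 region, at 1 to 10 tags per library, out of the tests.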
